A study of Mus musculus with 6 samples.

Results

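Aminoacyl-tRNA synthetases are the enzymes that join each amino acid to its transfer RNA (tRNA). The transcripts of 36 of them, 20 cytosolic and 16 mitochondrial, were followed in primary mouse embryonic fibroblasts (MEFs, fibroblasts cultured from mouse embryos) of the C57BL/6 strain. The cells, at passage 9, had been given 3 µM erastin or DMSO, its solvent, for 24 h. Members were chosen by gene symbol, with earlier results of these data known, from the 43346 genes of the deposited count table, and all 36 were found there. Both groups had 3 RNA sequencing libraries and shared the same medium, which held serum, nonessential amino acids and 2-mercaptoethanol. Erastin blocks the cystine/glutamate antiporter and is a standard inducer of ferroptosis, in which cells die through iron-dependent oxidation of membrane lipids. The experiment was made in triplicate, but no label says that the replicates came from separate embryos or cultures, so p-values measure only the spread between these libraries.

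Protein synthesis in the cytosol and in mitochondria draws on separate sets of tRNAs, and most amino acids have a cytosolic and a mitochondrial synthetase encoded by different nuclear genes, the latter with names ending in 2. The genes Gars and Kars each encode both forms of their enzyme. Several cytosolic enzymes sit together in the multi-synthetase complex, held by the scaffold proteins AIMP1, AIMP2 and EEF1E1. Many cytosolic synthetase genes are known targets of ATF4, the transcription factor made when amino acid shortage or other stress leads to phosphorylation of the initiation factor eIF2α.

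Total counts ran from 13333911 to 20509970 per library, and a level of 3 counts was worth 0.14 to 0.233 CPM (reads per 1000000 reads of the library, its size corrected by a TMM factor), a floor that covers counting error only. Of the 10 fibroblast markers examined, 9 were lower with erastin (edgeR adjusted p under 0.05), where 21.5% of the 14000 genes tested were lower. The summed level of the 10 ran from 36760 to 39970 CPM with DMSO and from 26590 to 28140 CPM with erastin. In bulk RNA, fewer cells of a type and less RNA per cell cannot be told apart. Summed markers of other cell types were low: at most 3.25 CPM in every library for epithelial and 10.4 CPM for immune cells. The 3 pluripotency markers summed to at most 1.01 CPM with DMSO and 0.372 CPM with erastin. Of these, Pou5f1 was at 0 in all libraries. Endothelial markers summed to 2.21 to 4.75 CPM in DMSO and 7.65 to 10.0 CPM in erastin libraries, and muscle markers to 35.5 to 45.4 and 64.9 to 68.4 CPM. In each of these sets of 4 only 1 gene was tested, and that gene was higher. The part of these shifts in the synthetase results was not tested. DMSO replicate 3 stood apart from the other DMSO libraries on the second principal component of all genes (-43.9 against 30.6 and 19.6), and calls of named genes that change without it are given below.

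Transcripts of the cytosolic synthetases were higher with erastin almost throughout. Of the 20 genes, 17 rose, 1 fell and 2 did not pass (edgeR quasi-likelihood test, adjusted p under 0.05 over all genes), where 21.6% of the 14000 genes tested were higher and 21.5% lower, 43.0% in either direction. Their median log2 fold change was 0.49, a 1.40-fold rise, beside -0.001 over all genes tested. Together the 20 genes accounted for 0.393%, 0.397% and 0.371% of all counts in the DMSO libraries (replicates 1 to 3, the order used throughout) and for 0.653%, 0.633% and 0.647% with erastin. In 17 genes the 3 erastin libraries lay above the 3 DMSO libraries and in 1 below, where 26.7% and 25.9% of all genes tested did so.

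**Figure D1:**
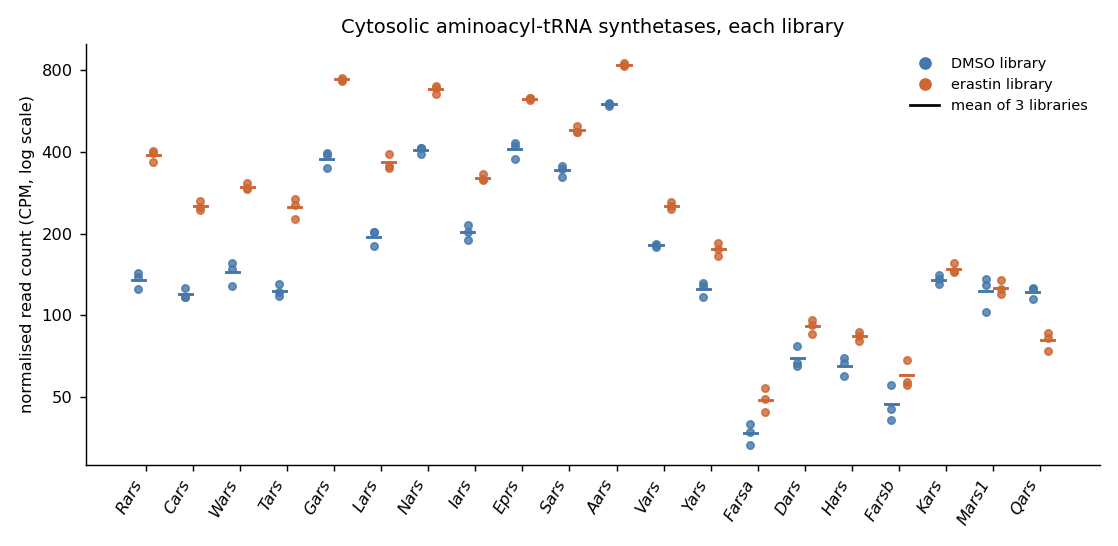
Normalised read count (CPM, log axis) of the 20 cytosolic synthetases in each library, ordered by fold change; points are libraries and bars the mean of 3. The erastin points lie above the DMSO points in 17 genes and below them in Qars, and the groups overlap in Mars1 and Farsb.

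Rars, which charges arginine, changed most; its gene lies at chr11:35808381-35834506 on the minus strand (GRCm38). It stood at 138, 143 and 125 CPM with DMSO and at 395, 401 and 366 CPM with erastin. The lowest erastin library was thus far above the highest DMSO library. The mean went from 135 ± 9.41 to 387 ± 18.4 CPM (SD, n = 3 each), a log2 fold change of 1.52 (SE 0.08, edgeR adjusted p = 2.16e-09).

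Cars, Wars and Tars, for cysteine, tryptophan and threonine, about doubled. Cars measured 117, 117 and 126 CPM in DMSO and 245, 264 and 250 CPM in erastin libraries (log2 fold change 1.08, standard error 0.07, adjusted p = 4.18e-08 by edgeR). Wars, known also as an interferon-induced gene, measured 156, 148 and 128 against 293, 292 and 307 CPM (log2 fold change 1.04, standard error 0.08, adjusted p = 1.52e-07 by edgeR). Tars measured 118, 131 and 122 against 254, 268 and 227 CPM (log2 fold change 1.02, standard error 0.08, adjusted p = 1.94e-07 by edgeR). In none of these genes did a DMSO and an erastin library overlap.

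Gars, which supplies glycyl-tRNA to both compartments, had the highest level per kilobase of transcript among the 20, at 158 CPM per kb in DMSO and 310 in erastin libraries. Its read count was 388, 395 and 347 CPM in DMSO and 725, 737 and 749 CPM with erastin (log2 fold change 0.97, standard error 0.07, adjusted p = 7.11e-08 by edgeR). Lars, the leucyl enzyme that also acts in leucine sensing, measured 181, 202 and 203 against 355, 347 and 393 CPM (log2 fold change 0.90, standard error 0.08, adjusted p = 3.45e-07 by edgeR). Both genes were separated by treatment with a wide gap.

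A middle group rose by less. Nars (asparagine), Iars (isoleucine) and Eprs, a fused enzyme for glutamate and proline, had log2 fold changes of 0.74, 0.66 and 0.62, with adjusted p-values (edgeR) up to 6.17e-06. Nars, next to Gars in level at 148 CPM per kb in DMSO, went from 405 ± 10.8 to 677 ± 24.5 CPM (SD, n = 3 each). Sars (serine), Aars (alanine), Vars (valine) and Yars (tyrosine) lay close together between 0.48 and 0.49. Aars, with the largest read count of the cytosolic set, measured 590, 602 and 599 CPM in DMSO and 831, 827 and 846 CPM with erastin (edgeR adjusted p = 1.93e-05), so the rise was small but the libraries within a group differed little. Aars shares 1326 exonic bases with Exosc6 on the same strand, where reads of the genes cannot be told apart. Exosc6 has no counts of its own in the deposited data, so how many Aars reads came from it is unknown.

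The smallest rises were those of Farsa and Farsb, the α and β subunits of the phenylalanyl enzyme, Dars (aspartate) and Hars (histidine). The subunit genes had similar log2 fold changes, 0.41 for Farsa (SE 0.11, edgeR adjusted p = 0.00762) and 0.35 for Farsb (SE 0.12, edgeR adjusted p = 0.0292). Farsb was the only riser whose groups overlapped, at 55.6, 45.1 and 41.4 CPM in DMSO and 55.6, 68.3 and 57.1 CPM with erastin. It did not pass with upper-quartile factors (edgeR adjusted p = 0.0626) or without DMSO replicate 2, DMSO replicate 3 or erastin replicate 2, where the adjusted p-value reached 0.143. The log2 rise was 0.39 for Dars and 0.36 for Hars (adjusted p = 0.0033 and 0.00443 by edgeR). Hars shares 195 exonic bases with Hars2 on the opposite strand, and the strand setting of the counting is not given in the sources used here.

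Qars, the glutaminyl enzyme (chr9:108507706-108515941, plus strand), was the only cytosolic member to fall. It stood at 126, 126 and 115 CPM in DMSO and at 74.2, 82.6 and 86.2 CPM in erastin libraries, without overlap (log2 fold change -0.59, standard error 0.09, adjusted p = 6.03e-05 by edgeR). Kars, for lysine, measured 130, 136 and 140 against 146, 144 and 156 CPM; its erastin libraries all lay above the DMSO libraries, but the difference did not pass (log2 fold change 0.13, 95% interval -0.03 to 0.30, edgeR adjusted p = 0.171). Mars1, the methionyl enzyme that also charges the initiator tRNA, measured 129, 136 and 103 CPM in DMSO and 120, 125 and 135 CPM with erastin. Its groups overlapped, and the interval of its log2 fold change ran from -0.17 to 0.26 around 0.04 (edgeR adjusted p = 0.759). The estimate was -0.07 without DMSO replicate 3, the lowest library. Mars1 shares 68 exonic bases with Ddit3 on the opposite strand.

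By place in the cell's machinery, all 12 cytosolic enzymes outside the multi-synthetase complex rose, between 0.35 and 1.08 on the log2 scale around a median of 0.49. Of the 8 enzymes of the complex, 5 rose (Rars, Lars, Iars, Eprs and Dars), 1 fell (Qars) and 2 did not pass (Kars and Mars1). Of all genes tested, 21.6% were higher and 21.5% lower. The median of the 8 enzymes of the complex, 0.50, was almost the same as that of the 12 outside it. Their range, -0.59 to 1.52, held both extremes of the cytosolic set. By structural class, 7 of 9 class I genes and 9 of 10 class II genes rose, with medians of 0.66 and 0.45; Eprs joins both classes and is counted in neither. The difference between these subsets was not tested.

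**Figure D2:**
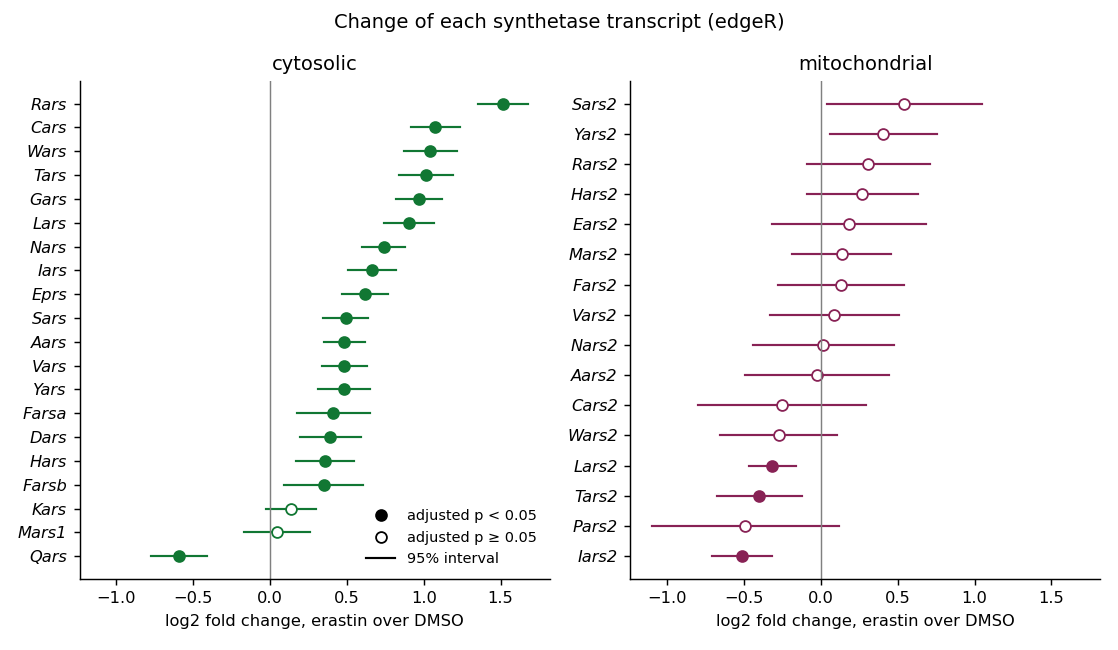
Log2 fold change of erastin over DMSO for each synthetase with its 95% interval (lines), cytosolic on the left and mitochondrial on the right; filled points have an adjusted p under 0.05. Cytosolic values run from -0.59 (Qars) to 1.52 (Rars) and mitochondrial values from -0.51 (Iars2) to 0.54 (Sars2).

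Since most cytosolic synthetases rose together, the RefSeq promoter windows of the members (250 bases before to 50 after the start, build GRCm38.p6) were searched on both strands for TGATGNAA (TTNCATCA on the other strand), the core of the C/EBP-ATF response element to which ATF4 dimers are known to bind. Windows matched 27 of the 36 members; Cars, Hars, Lars, Nars, Rars, Vars, Wars, Hars2 and Pars2 had none. A match was present in 5 of 13 cytosolic members (38.5%), Aars, Gars, Iars, Tars and Yars, and in 0 of 14 mitochondrial members, where 4.51% of all 27025 genes with a window had a match. Among genes tested that had a window under the same symbol, it was 3.69% of 2358 higher and 2.13% of 2207 lower. It was 2.40% of the 5542 that did not pass. A match describes the letters only, and no binding was measured.

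The stretches with a match are shown from 120 bases before the start to 30 after, 5′ to 3′ on the gene's strand, with the matches in capitals, and that of Qars, the cytosolic gene that fell, is shown for comparison.
Aars, chr8:111033722-111033871, plus strand: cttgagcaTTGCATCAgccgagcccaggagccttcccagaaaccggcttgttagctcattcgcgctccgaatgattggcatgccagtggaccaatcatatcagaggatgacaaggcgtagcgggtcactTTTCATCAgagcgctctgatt
Gars, chr6:55037881-55038030, plus strand: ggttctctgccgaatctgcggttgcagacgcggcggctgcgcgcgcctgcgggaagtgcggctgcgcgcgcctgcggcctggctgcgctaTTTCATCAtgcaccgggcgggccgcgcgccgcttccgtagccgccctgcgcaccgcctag
Iars, chr13:49682010-49682159, plus strand: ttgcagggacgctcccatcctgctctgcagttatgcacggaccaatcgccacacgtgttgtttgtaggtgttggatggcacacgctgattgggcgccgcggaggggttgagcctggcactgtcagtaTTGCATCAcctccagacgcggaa
Tars, chr15:11399629-11399778, minus strand: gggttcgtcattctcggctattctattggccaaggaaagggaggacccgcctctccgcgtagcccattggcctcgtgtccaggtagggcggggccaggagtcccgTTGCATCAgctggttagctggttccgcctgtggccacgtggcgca
Yars, chr4:129189783-129189932, plus strand: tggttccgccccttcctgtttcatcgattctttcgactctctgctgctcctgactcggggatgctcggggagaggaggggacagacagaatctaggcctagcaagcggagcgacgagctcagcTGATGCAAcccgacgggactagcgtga
Qars, chr9:108507885-108508034, plus strand: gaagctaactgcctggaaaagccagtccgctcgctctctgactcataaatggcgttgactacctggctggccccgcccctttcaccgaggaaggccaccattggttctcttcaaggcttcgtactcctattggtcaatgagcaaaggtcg

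Aars held 2 matches, beginning 112 bases before and 9 after its start, and those of Gars, Iars, Tars and Yars began 30 before, 7 after, 15 before and 3 after. The form TGATGCAA or its complement TTGCATCA stood in Aars, Iars, Tars and Yars, 4 of 13 cytosolic windows, and in 1.03% of all genes with a window; Gars had TTTCATCA. The 5 genes with a match had log2 fold changes of 0.48 to 1.02 with a median of 0.66. The 8 cytosolic genes with a window and no match ranged from -0.59 to 0.62 with a median of 0.37. Eprs at 0.62 and Sars at 0.49 were among them, so the ranges overlapped. For the cytosolic genes without a window the matches are unknown. These were Rars (1.52), Cars (1.08), Wars (1.04), Lars (0.90), Nars (0.74), Vars (0.48) and Hars (0.36). The largest cytosolic rises are thus missing from the comparison, and the sets were not tested against each other. The core of the antioxidant response element, TGACNNNGC (GCNNNGTCA on the other strand), stood in 3 of 13 cytosolic windows (Aars, Iars and Mars1), in 3 of 14 mitochondrial windows (Aars2, Lars2 and Nars2) and in 14.0% of all genes with a window. Among the genes tested that had a window, its share was 18.7% of those higher, 16.6% of those lower and 16.2% of those not passing.

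Few mitochondrial synthetases changed. Of the 16 genes, 0 were higher and 3 lower at an edgeR adjusted p under 0.05, beside the 21.6% and 21.5% of all genes. The 3 were Lars2, whose counts may include ribosomal RNA reads, and 2 of the other 15. At an unadjusted edgeR p under 0.05, 2 of the 16 were higher and 3 lower, beside 3495 and 3519 of the 14000 genes tested. With DESeq2, 0 were higher and 3 lower. Their median log2 fold change was 0.05, or 0.09 without Lars2. Leaving out 1 library changed these counts: 2 were higher without DMSO replicate 3 and 1 without erastin replicate 3, and 2 were lower without DMSO replicate 2 or erastin replicate 1. These transcripts were much scarcer than the cytosolic ones. Their median was 3.94 CPM per kb in DMSO over the 15 genes other than Lars2, against 44.8 for the cytosolic set and 5.96 over all genes tested. The median SE of a log2 fold change was 0.19 for the mitochondrial genes, 0.08 for the cytosolic genes and 0.16 over all genes tested. Small changes were thus harder to detect than in the cytosolic set. Of the 16, 9 had a 95% interval that lay wholly under the cytosolic median of 0.49, and 7 had an interval that held it. The 15 genes without Lars2 accounted for 0.0294%, 0.028% and 0.0282% of counts with DMSO and 0.0261%, 0.0266% and 0.0301% with erastin, and these shares overlapped.

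**Figure D3:**
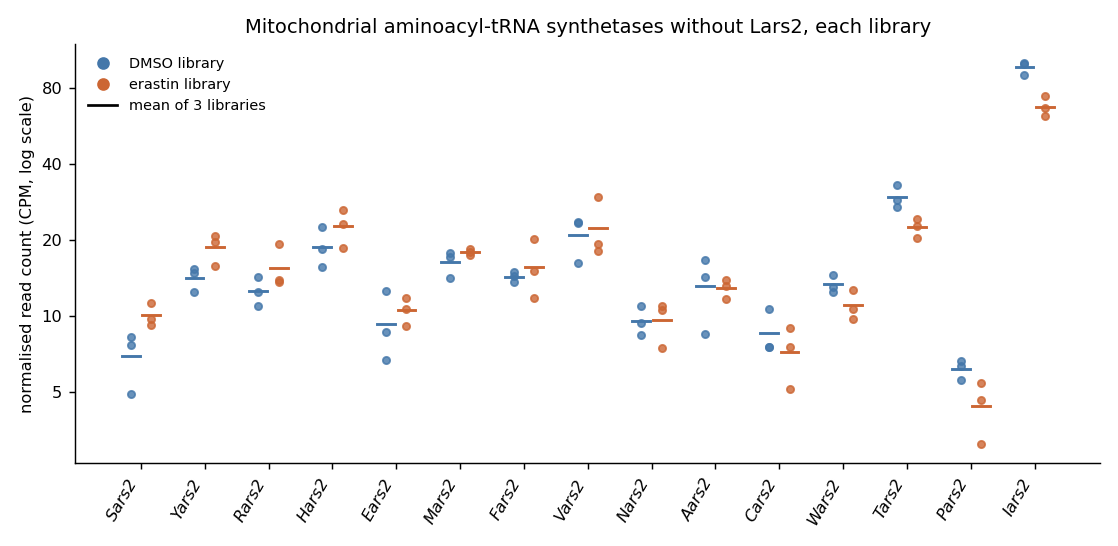
Normalised read count (CPM, log axis) of 15 mitochondrial synthetases in each library, ordered by fold change; points are libraries and bars the mean of 3, and Lars2 is left out for scale. Only Iars2, Tars2 and Pars2 have all erastin points under the DMSO points, and only Sars2 and Yars2 have them above.

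Iars2, for isoleucine (chr1:185284726-185329396, minus strand), had the smallest p-value of the mitochondrial genes. It measured 99.8, 90.3 and 101 CPM in DMSO and 62.2, 67.0 and 74.4 CPM with erastin (log2 fold change -0.51, standard error 0.09, adjusted p = 0.000385 by edgeR), with a gap between the groups. At 17.7 CPM per kb in DMSO it was the most abundant mitochondrial member after Lars2. Its exons share 2034 bases with Rab3gap2 on the opposite strand, a gene with 920 to 1356 reads per DMSO library and 2305 to 3089 per erastin library; the part of shared reads was not tested. Tars2, for threonine, measured 27.2, 33.2 and 28.8 against 20.5, 22.8 and 24.4 CPM (log2 fold change -0.40, standard error 0.13, adjusted p = 0.0216 by edgeR). Tars2 did not pass without DMSO replicate 2 or without erastin replicate 1, with adjusted p-values up to 0.119.

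Sars2 and Yars2, for serine and tyrosine, lay in the other direction without passing. Sars2 measured 7.70, 4.93 and 8.32 CPM in DMSO and 9.76, 11.3 and 9.27 CPM with erastin (log2 fold change 0.54, 95% interval 0.04 to 1.05, edgeR adjusted p = 0.0771). Yars2 measured 14.8, 12.5 and 15.4 against 19.7, 20.8 and 15.9 CPM (log2 fold change 0.41, 95% interval 0.06 to 0.76, edgeR adjusted p = 0.0588). In both, the 3 erastin libraries were above the 3 DMSO libraries, narrowly so in Yars2. Without DMSO replicate 3 both passed, with adjusted p = 0.0392 for Sars2 and 0.0484 for Yars2 by edgeR, and Yars2 also passed without erastin replicate 3 (adjusted p = 0.026). Pars2, for proline, was the scarcest by read count, at 5.58, 6.64 and 6.37 CPM in DMSO and 4.65, 3.11 and 5.44 CPM with erastin, and did not pass (log2 fold change -0.49, 95% interval -1.10 to 0.12, edgeR adjusted p = 0.182).

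The other 10 mitochondrial genes had overlapping groups. Of all 16, Lars2 included, 2 had the erastin libraries all above and 4 all below the DMSO libraries, where 26.7% and 25.9% of all genes tested did so. Rars2 and Hars2, for arginine and histidine, had log2 fold changes of 0.31 and 0.27, with intervals of -0.09 to 0.71 and -0.09 to 0.63. Ears2 (glutamate), Mars2 (methionine), Fars2 (phenylalanine), Vars2 (valine), Nars2 (asparagine) and Aars2 (alanine) lay between -0.03 and 0.18, and all their intervals held 0. In Aars2 the DMSO libraries were spread widely, at 14.3, 16.7 and 8.55 CPM, the last being replicate 3. Wars2 (tryptophan) and Cars2 (cysteine) stood at -0.28 and -0.25. For Cars2, at 10.7, 7.58 and 7.54 CPM in DMSO and 5.16, 7.53 and 8.96 CPM with erastin, the interval of -0.80 to 0.29 excluded the rise of 1.08 seen in Cars. Cars2 shares 422 exonic bases with Naxd, Fars2 501 with Nrn1, Vars2 465 with Gm20483 and Nars2 284 with C230038L03Rik, each on the opposite strand.

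Lars2, the mitochondrial leucyl enzyme, stood apart from every other member in level. It was the third most counted gene of the whole table and held 2.63%, 2.86% and 2.62% of all counts with DMSO and 2.19%, 2.45% and 2.16% with erastin. Per kilobase its level in DMSO was 400.5 times that of Iars2. Part of the Lars2 sequence is known to resemble ribosomal RNA, so its counts may include rRNA reads, and how far they measure the Lars2 transcript was not tested. Its normalised count was 26450, 29320 and 27190 CPM in DMSO and 20860, 24630 and 21050 CPM with erastin, without overlap (log2 fold change -0.32, standard error 0.07, adjusted p = 0.00221 by edgeR). The other 3 of the 4 most counted genes, chosen after their values were seen, were Gm42418, Mir6236 and Gm26917, with log2 fold changes of -0.09, -0.40 and -0.19, of which Mir6236 passed (edgeR adjusted p = 0.00383).

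Comparing the cytosolic with the mitochondrial gene for the same amino acid within a library removes the library scaling. Such a ratio could be formed for 15 combinations, with Fars2 set against both Farsa and Farsb. In 7 of them, those for threonine, cysteine, tryptophan, leucine, arginine, isoleucine and asparagine, every erastin library had a higher ratio than every DMSO library. In 0 the ratio was lower throughout, and in 8 the groups overlapped. Single genes were separated upward in 26.7% and downward in 25.9% of all genes tested, and the share for ratios of other gene pairs was not computed. The leucine ratio rests on Lars2, whose counts may include rRNA reads. With 3 libraries against 3, the exact two-sided permutation test cannot go below p = 0.1, which these 7 reached (0.214 after Benjamini-Hochberg adjustment over the 15), so none passes a threshold of 0.05.

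The ratio of Tars to Tars2 moved most, from log2 values of 2.12, 1.98 and 2.08 in DMSO to 3.64, 3.55 and 3.22 in erastin libraries, as Tars rose and Tars2 fell. Cars to Cars2 had log2 ratios of 3.45, 3.95 and 4.07 against 5.57, 5.13 and 4.80. The shift was 1.41 for the threonine and 1.35 for the cysteine genes. Wars to Wars2 shifted by 1.33, Lars to Lars2 by 1.23, Rars to Rars2 by 1.22, Iars to Iars2 by 1.18 and Nars to Nars2 by 0.74. At the other end, the ratios of Mars1 to Mars2, Sars to Sars2, Yars to Yars2 and Hars to Hars2 shifted by -0.09, -0.07, 0.08 and 0.09 and overlapped. In the serine and tyrosine genes the cytosolic and the mitochondrial member had similar fold changes, 0.49 and 0.54 for serine and 0.48 and 0.41 for tyrosine.

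**Figure D4:**
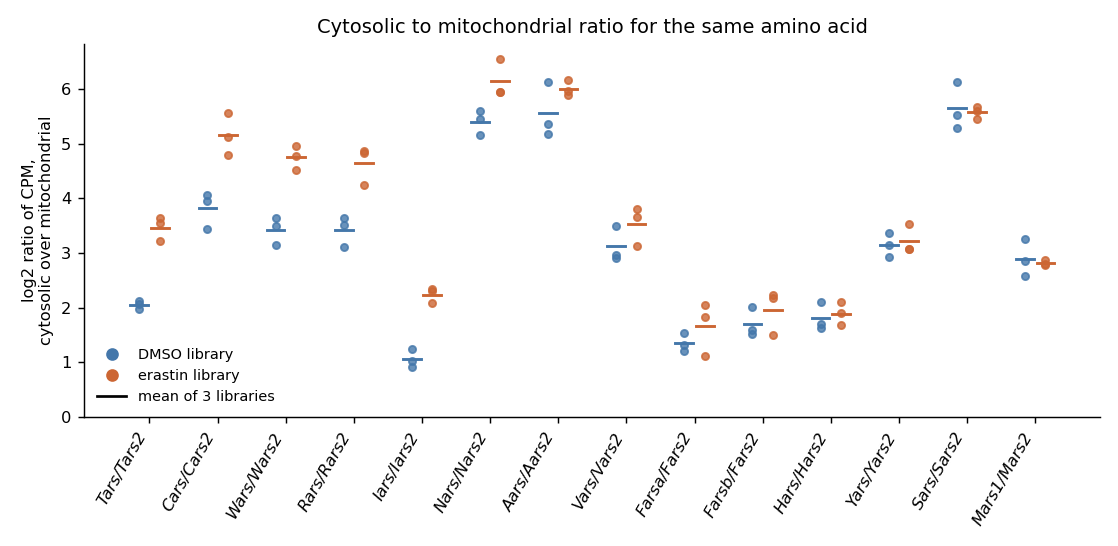
Log2 ratio of CPM of the cytosolic over the mitochondrial synthetase gene for the same amino acid in each library; points are libraries and bars the mean of 3, and the ratio of Lars to Lars2, between -7.19 and -5.74, is left out for scale. The erastin points lie above the DMSO points for Tars, Cars, Wars, Rars, Iars and Nars, and overlap with them for the other 8.

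The 36 genes were set beside 4 other lists. Synthetase partner genes, which comprise scaffold proteins, further synthetases and enzymes that modify an amino acid on its tRNA, gave 2 higher and 1 lower of 11, where 21.6% and 21.5% of all genes tested were higher and lower. Their median log2 fold change was -0.03. The risers were 2 of the 3 scaffold genes of the multi-synthetase complex. Eef1e1 (AIMP3) measured 26.9, 20.4 and 21.8 CPM in DMSO and 42.3, 48.4 and 40.2 CPM with erastin (log2 fold change 0.93, standard error 0.13, adjusted p = 4.24e-05 by edgeR), and Aimp1 rose by 0.33 (edgeR adjusted p = 0.0156). Aimp2 had a log2 fold change of 0.14 and did not pass (edgeR adjusted p = 0.487). Pstk, the kinase that acts on seryl-tRNA on the way to selenocysteine, fell from 13.2 ± 0.954 to 8.70 ± 1.17 CPM (SD, n = 3 each; log2 fold change -0.60, edgeR adjusted p = 0.0181). Aimp1 did not pass after an offset for GC content and transcript length (log2 fold change 0.07, edgeR adjusted p = 0.597) or without DMSO replicate 1, erastin replicate 1 or erastin replicate 3, and Pstk did not pass without DMSO replicate 2 or erastin replicate 3.

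Of 17 tested genes that process, proofread or export tRNA (18 in the list), 2 were higher and 2 lower, both smaller shares than the 21.6% and 21.5% of all genes, and the median was -0.08. Trnt1, which adds the CCA end that synthetases need, rose from 24.3 ± 1.47 to 54.1 ± 6.87 CPM (SD, n = 3 each; log2 fold change 1.16, standard error 0.12, adjusted p = 1.82e-06 by edgeR). Xpot, the nuclear export receptor for tRNA, rose from 220 ± 5.74 to 328.5 ± 6.24 CPM (log2 fold change 0.58, standard error 0.07, adjusted p = 7.57e-06 by edgeR). Tsen34, a subunit of the tRNA splicing endonuclease, and Dtd1, which removes D-amino acids from tRNA, had log2 fold changes of -0.62 and -0.81, both lower (adjusted p = 0.000192 and 0.00287 by edgeR).

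Of 12 translation elongation genes, 2 rose and 5 fell, beside 21.6% and 21.5% of all genes, around a median log2 fold change of -0.16. Eef2, the translocation factor, fell from 3550 ± 105 to 2293 ± 56.2 CPM (SD, n = 3 each; log2 fold change -0.63, standard error 0.06, adjusted p = 1.12e-06 by edgeR). Eef1a1 and Eef1b2, which deliver charged tRNA to the ribosome and recharge the delivery factor with GTP, each had a log2 fold change of -0.34 (adjusted p = 0.000819 and 0.00214 by edgeR). These 3 genes thus went opposite to most cytosolic synthetases. The other genes that passed were Eefsec, the selenocysteine elongation factor (-0.69), Eef1g (-0.31), Gfm1, a mitochondrial translocation factor (0.33), and Eif5a (0.20). Neither Gfm1 nor Eif5a passed without DMSO replicate 2, erastin replicate 1 or erastin replicate 2. Eif5a also did not pass without DMSO replicate 3 (adjusted p = 0.0924 by edgeR) or with upper-quartile factors, nor Gfm1 with the offset for GC content and length.

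Amino acid supply genes, that is biosynthetic enzymes and plasma membrane transporters, gave 20 higher and 1 lower of 27 tested (28 in the list), beside 21.6% and 21.5% of all genes, with a median of 0.93. Slc7a11, a subunit of the antiporter that erastin blocks, Cth, which makes cysteine from cystathionine, and Slc6a9, a glycine transporter, gave the smallest p-values. Their log2 fold changes were 3.75, 3.09 and 1.96, with adjusted p-values (edgeR) up to 1.52e-09. The gene that fell was Slc43a1, at 2.31 ± 0.12 CPM in DMSO and 0.855 ± 0.463 CPM with erastin (SD, n = 3 each; edgeR adjusted p = 0.0457), and it did not pass when any 1 library other than erastin replicate 3 was left out. These lists were drawn up with earlier results of these data known, and their differences from the synthetases were not tested.

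**Figure D5:**
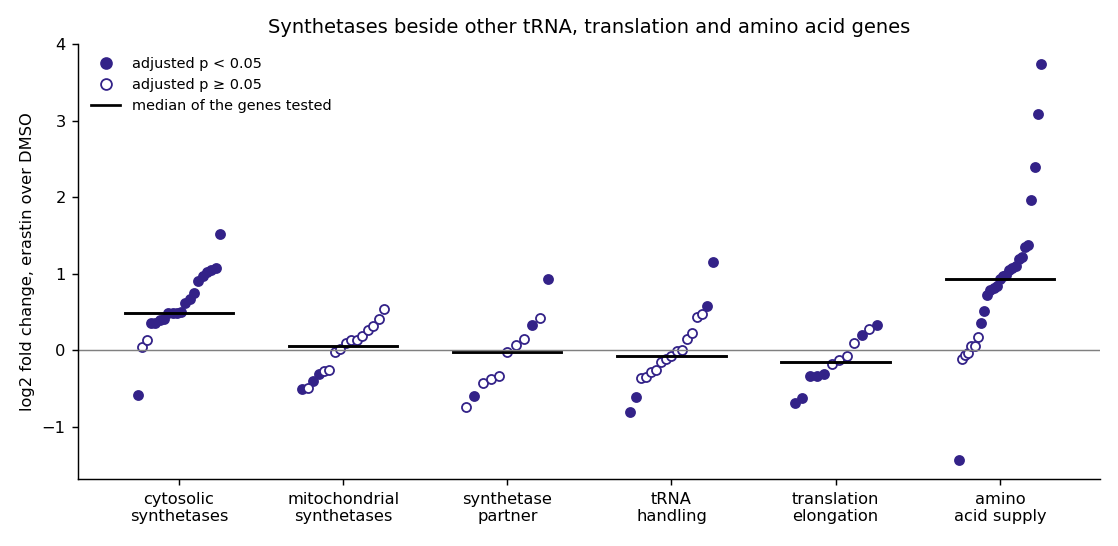
Log2 fold change of each gene tested in the 2 synthetase classes and the 4 other lists; filled points have an adjusted p under 0.05 and the bar is the median. Cytosolic synthetases (median 0.49) and amino acid supply genes (0.93) lie mostly above 0, and the other 4 groups have medians between -0.16 and 0.05.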

How the data were processed

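RNA sequencing libraries were made from rRNA-depleted total RNA with the Ion Total RNA-seq kit and sequenced on an Ion Proton, per the labels' protocols. The deposited table holds raw read counts per gene, which the authors did not normalize. The submitters' processing notes name HTSeq 0.9.1, SAMtools and the build mm10. The aligner, annotation, strand setting and treatment of ambiguous reads are not given in the sources used here. Column names were matched to samples through the sample numbers in the descriptions, with 0 columns unused.

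Identifiers were matched to GENCODE M21 (GRCm38) without version; 42462 had a symbol. Counts were analysed with edgeR 4.0.16 (limma 3.58.1, R 4.3.3): filterByExpr (minimum count 10 in 3 libraries), TMM factors, glmQLFit and glmQLFTest with treatment as the only term, Benjamini-Hochberg over 14000 genes, threshold 0.05. Standard errors and 95% intervals use the model's weights with the moderated quasi-dispersion. CPM per kb divides by the longest M21 transcript. The procedure was tested on simulated data. No 2 replicates agreed within sampling noise (chi-square per degree of freedom 11.0 to 19.2 within groups). Members and lists were chosen with earlier results of these data known. Every member is named; of each list, the 3 genes with the smallest p-value, all that passed where 5 or fewer did, and others (Aimp2, Eefsec, Eef1g, Gfm1, Eif5a, Slc43a1, Sepsecs, Qrsl1, Gatb, Gatc, Tarsl2) chosen after their values were seen. Alternatives were other scaling factors, filters and thresholds, DESeq2 1.42.0, the replicate number as a block, an offset for GC content and length (mgcv 1.9.3), and leaving out each library.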

Additional observations from a re-analysis of the deposited data

How the results depend on the processing

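The 21 synthetases that passed kept their direction in all 336 values under 16 alternatives each, and 19 of them also kept their side of the threshold; the 6 exceptions were those of Farsb and Tars2 given above. Cytosolic genes higher ran from 16 to 17 and lower stayed at 1 under every alternative, and the cytosolic median ran from 0.434 to 0.552. The mitochondrial median was -0.003 under upper-quartile scaling (all genes -0.055, against -0.001), and -0.069 to 0.144 across the fits that left out 1 library. Genes higher made up 50.2% of those passing, 44.0% under upper-quartile scaling and 57.1% under total-count scaling.

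Mitochondrial genes higher were 2 (Sars2 and Yars2) with scaling by total count, 1 (Sars2) with the offset for GC content and length, both with and without the replicate block, and 0 to 2 with 1 library left out. Partner genes higher were 1 with the offset, with or without the replicate block, and with an adjusted p under 0.01, and 1 to 2 with 1 library left out; those lower were 0 under 0.01 and 0 to 2 with 1 library left out. tRNA handling genes lower were 4 with the offset. Elongation genes higher were 1 with upper-quartile factors or the offset, with or without the replicate block, 0 under 0.01, and 0 to 2 with 1 library left out. Supply genes lower were 0 with scaling by total count, no filter, the replicate block (also with the offset) and under 0.01, and 0 to 1 with 1 library left out.

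Members that did not pass changed sign as follows. Mars1 was -0.010 and Nars2 -0.038 with upper-quartile factors; Aars2 was 0.034 with scaling by total count. With the replicate block Aars2 was 0.018 and Nars2 -0.00029. With the offset Aars2 was 0.128, Mars2 -0.165 and Nars2 -0.079, and with the block added 0.180, -0.16 and -0.092. With 1 library left out, Mars1 ran from -0.070 to 0.128, Aars2 from -0.260 to 0.183, Ears2 from -0.0011 to 0.456, Fars2 from -0.093 to 0.301, Nars2 from -0.089 to 0.169 and Vars2 from -0.168 to 0.216. The cause was not tested. The replicate block alone changed no call of a synthetase. Equally numbered libraries had a mean correlation of deviations of 0.013, against -0.0063 for others. With 3 libraries per group these values cannot decide whether equal numbers mark libraries handled together, and the labels do not say. Counts were lower for most mitochondrial genes (median of the mean counts 249.4, against 3532 for the cytosolic genes and 324.5 for all genes tested). Their standard errors were larger in the median than those of the cytosolic genes (0.19 against 0.077). Only that of Lars2 (0.071) lay under the cytosolic median, and that of Iars2 was 0.092. The part of depth was not tested.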

Other observations

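Selenocysteine, the residue at the active site of the peroxidase GPX4, is made on a tRNA that is first charged with serine by the product of Sars, which rose by 0.49 on the log2 scale (edgeR adjusted p = 3.74e-05). The next enzymes are the kinase Pstk, which fell by 0.60 (edgeR adjusted p = 0.0181, but 0.0694 without DMSO replicate 2 and 0.063 without erastin replicate 3), and the synthase Sepsecs, which measured 12.2, 9.52 and 12.4 CPM in DMSO and 14.9, 13.0 and 17.3 CPM with erastin and did not pass (log2 fold change 0.41, edgeR adjusted p = 0.081). Eefsec, which brings the charged tRNA to the ribosome, fell from 17.3 ± 1.53 to 10.7 ± 1.94 CPM (SD, n = 3 each; log2 fold change -0.69, edgeR adjusted p = 0.00569). These 4 genes were put together after their values were seen, and nothing is read from them as a group.

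In the mitochondrial route to glutaminyl-tRNA no separate glutaminyl synthetase is used: Ears2 charges glutamate, and the products of Qrsl1, Gatb and Gatc convert it. These genes had log2 fold changes of 0.18, -0.75, -0.43 and -0.03, and none passed (edgeR adjusted p = 0.0707 to 0.92). The cytosolic glutaminyl enzyme Qars was the cytosolic member that fell. Tarsl2, a synthetase outside the 36, had a value of -0.34 and did not pass either (edgeR adjusted p = 0.41).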
